A study of Mus musculus with 10 samples.

Results

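Cathepsins are the main proteases of the lysosome, and 10 of their genes were followed here by name: Ctsa, Ctsb, Ctsc, Ctsd, Ctse, Ctsh, Ctsk, Ctsl, Ctss and Ctsz. Each was found as 1 of the 46956 loci that carry a gene symbol in the deposited tables, and all 10 were among the 12500 loci abundant enough to be tested. The RNA came from tumour-associated macrophages of BALB/cJ mice that had been given 100000 cells of 4T1, a mouse mammary carcinoma line, in the mammary fat pad. Live cells positive for CD45, CD11b and F4/80 and negative for CD8, Ly6C and Ly6G were sorted on day 14. The vehicle group (5 samples) received PBS. The JHU083 group (5 samples) received JHU083, a prodrug of the glutamine antagonist 6-diazo-5-oxo-L-norleucine, at 1 mg/kg from day 7 to day 13. All 10 samples shared the strain, the tumour and the harvest day, and the labels do not say whether each sample came from a separate mouse, so p-values measure only the spread between these samples.

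Cathepsins are made as inactive precursors, carried to endosomes and lysosomes largely by mannose 6-phosphate receptors, and activated there by removal of a propeptide. Most are cysteine proteases (Ctsb, Ctsc, Ctsh, Ctsk, Ctsl, Ctss and Ctsz), while Ctsd and Ctse are aspartic proteases and Ctsa is a serine carboxypeptidase. Macrophages use them to degrade engulfed protein and to prepare antigen, and secrete some of them into the surrounding matrix. Cystatins bind and block the cysteine cathepsins.

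The libraries held 11147718 to 14575718 fragments in vehicle and 13638165 to 15740481 in JHU083 (exact two-sided permutation p = 0.0238 for the difference in means, n = 5 each). The share from mitochondrial genes was 1.79 ± 0.20% in vehicle and 2.31 ± 0.14% in JHU083 (SD, exact two-sided permutation p = 0.00794), and its part in the cathepsin results was not tested. Levels are given as CPM, fragment counts scaled to library size by TMM, for comparisons of 1 gene between samples, and as the deposited FPKM, which also divides by length, for comparisons between genes. Adgre1, the gene of F4/80, Csf1r and Mertk rose with JHU083 and the other 7 of 10 macrophage markers did not pass the test, while transcripts of tumour epithelium (10 of 10 markers lower) and fibroblasts (5 of 8 lower, 1 higher) were present, as described beside Ctsk. Markers of other immune cells were low, and some were higher in JHU083. Of 10 T cell and NK markers 2 were tested and 1, Cd4, was higher, at a mean of 14.7 CPM in vehicle and 31.8 CPM in JHU083. The other, Klrb1c, whose locus also lists Gm44511 and Klrb1b, did not pass, at 11.9 and 9.13 CPM. The T cell genes Cd3d, Cd3e and Cd3g reached at most 0.626, 0.783 and 1.15 CPM in any sample. The list, with its higher level in JHU083 carried by Cd4, summed to 27.6 to 30.7 CPM in vehicle and 37.6 to 55.5 CPM in JHU083. Of 7 dendritic cell markers 5 were tested and 1, Cd209a, was higher, at a mean of 1.69 CPM in vehicle and 7.24 CPM in JHU083. Flt3, Zbtb46, Ccr7 and Clec9a, whose locus also lists Clec1b, did not pass, and their groups overlapped. The sums of this list, 9.28 to 11.2 CPM and 13.6 to 28.0 CPM, differed mostly through Cd209a. Neither of these sums overlapped between the groups. Of 7 eosinophil and mast cell markers 2 of 4 tested were higher (Siglecf and Cpa3, sums 6.03 to 12.4 CPM and 9.53 to 21.9 CPM), and of 5 B cell markers the 1 tested, Cd79b, was higher (2.72 to 3.77 CPM and 3.47 to 5.14 CPM). No marker of these lists was at 0 in every sample, and the part of these cells in the higher cathepsins was not tested. In 5 libraries, 3 of vehicle and 2 of JHU083, no fragment was assigned to Rn18s-rs5 or Gm42418, which hold ribosomal RNA, and values within these 5 and within the other 5 are given below or in the closing limits for each cathepsin whose call or size depended on the set. In bulk RNA, fewer cells of a type and less RNA per cell cannot be told apart.

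Positions are those of GENCODE M21 on GRCm38, the build in the submitters' processing notes. All 10 are protein-coding genes, spread over 7 chromosomes, with Ctsk (chromosome 3, 95499256 to 95509362) and Ctss (chromosome 3, 95526786 to 95556403) lying 17423 bases apart on the same strand. The locus of Ctsd (chromosome 7, 142375911 to 142388038) also lists Ifitm10 and RP23-145I16.3, so its values cover all 3 symbols. Ctsb (chromosome 14, 63122462 to 63145923) shares up to 774 bases of transcript with Fdft1 on the opposite strand, Ctsa (chromosome 2, 164832873 to 164841032) overlaps Neurl2 and Pltp, and Ctsz (chromosome 2, 174427493 to 174439039) overlaps Nelfcd. The library kit does not mark strand, so reads from the shared bases cannot be told apart. In vehicle the locus of Fdft1 stood at 2.07% of the FPKM of Ctsb, that of Pltp at 13.2% of Ctsa and that of Nelfcd at 0.667% of Ctsz. Ctsl (chromosome 13, 64359337 to 64370890) overlaps the antisense gene Gm47123, and stretches of at least 75 bases of its transcripts matched 25 other genes at 95% identity or more, so the origin of its count is uncertain. Ctsd shares up to 671 bases with Gm49369, which overlaps it on the same strand. No such match was found for Ctsc (chromosome 7, 88278085 to 88310888), Ctse (chromosome 1, 131638306 to 131675505), Ctsh (chromosome 9, 90054152 to 90076089), Ctsk, Ctss or Ctsz. Ctsc does overlap the noncoding gene Gm26522 on the opposite strand, and Ctss the pseudogene Hmgb1-ps5 on the same strand. In vehicle their loci stood at 0.118% of the FPKM of Ctsc and 0.152% of that of Ctss.

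Start-site sequences are shown for 2 members that rose (Ctsd and Ctsl), for both that fell (Ctsc and Ctsk) and for Ctsa, which did not pass the test but holds the E-box, because lysosomal genes are known as targets of TFEB and its relatives, which bind the E-box CACGTG, best as part of the longer CLEAR element whose core is GTCACGTG. RefSeq sequences on GRCm38.p6 were found for 7 of the 10 genes, with 8 start sites, and not for Ctsb, Ctse and Ctsh. Each sequence runs 5′ to 3′ on the strand of the gene from 250 bases before the start to 20 bases after it. Both strands were searched. Capitals mark CACGTG in Ctsd, Ctsl and Ctsa, and in Ctsc the sequence GAGGAAGT read on the opposite strand, a match to the core bound by PU.1, a factor of the macrophage lineage. Ctsk holds none of these letters in its window, and neither do Ctsz and the first start of Ctsa, which are not shown.
Ctsd (chr7:142387808-142388077, minus strand): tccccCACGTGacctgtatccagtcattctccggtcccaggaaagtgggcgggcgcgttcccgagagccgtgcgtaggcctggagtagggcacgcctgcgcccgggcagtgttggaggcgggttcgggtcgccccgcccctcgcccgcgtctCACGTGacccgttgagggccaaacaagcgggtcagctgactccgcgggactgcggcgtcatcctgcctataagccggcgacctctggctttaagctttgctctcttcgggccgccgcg
Ctsl (chr13:64370501-64370770, minus strand): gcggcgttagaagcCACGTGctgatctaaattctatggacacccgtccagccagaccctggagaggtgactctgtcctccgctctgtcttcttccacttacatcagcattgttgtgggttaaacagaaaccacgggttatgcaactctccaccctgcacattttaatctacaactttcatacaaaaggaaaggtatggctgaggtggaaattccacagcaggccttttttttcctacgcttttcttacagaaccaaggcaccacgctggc
Ctsa, second start (chr2:164833523-164833792, plus strand): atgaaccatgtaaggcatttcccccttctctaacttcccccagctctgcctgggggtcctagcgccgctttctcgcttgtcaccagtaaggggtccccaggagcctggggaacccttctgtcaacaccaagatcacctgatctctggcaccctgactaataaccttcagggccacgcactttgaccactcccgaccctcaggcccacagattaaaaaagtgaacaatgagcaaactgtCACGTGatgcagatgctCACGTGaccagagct
Ctsc (chr7:88277835-88278104, plus strand): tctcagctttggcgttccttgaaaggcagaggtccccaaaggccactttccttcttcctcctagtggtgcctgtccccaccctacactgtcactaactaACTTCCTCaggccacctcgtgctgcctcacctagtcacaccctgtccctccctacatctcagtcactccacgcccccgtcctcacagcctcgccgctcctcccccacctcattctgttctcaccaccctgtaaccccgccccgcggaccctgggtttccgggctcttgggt
Ctsk (chr3:95498960-95499229, plus strand): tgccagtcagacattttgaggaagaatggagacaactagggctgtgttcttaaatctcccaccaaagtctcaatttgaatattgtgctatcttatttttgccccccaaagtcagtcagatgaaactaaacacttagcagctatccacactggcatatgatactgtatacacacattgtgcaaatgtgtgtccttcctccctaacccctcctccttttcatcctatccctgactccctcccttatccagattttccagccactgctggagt
CACGTG lay 245 and 98 bases before the start of Ctsd and 236 bases before that of Ctsl. At the second start of Ctsa it lay 12 bases before and 5 bases after the start. All 4 of the matches in Ctsd and Ctsa extend to GTCACGTG, read on one strand or the other. Over all 32851 start sites with 300 bases, 7.15% held CACGTG and 2.25% held GTCACGTG on either strand. GAGGAAGT was found 151 bases before the start of Ctsc and 2 bases before that of Ctss, and in 3.20% of all start sites. The sequence TGANTCA, recognised by AP-1, was in none of the 8 member windows and in 7.81% of all. A match is a description of these letters and not a measured binding site.

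Per length, 8 of the 10 cathepsins stood at a mean of 505 FPKM or more in vehicle, and the other two, Ctse and Ctsk, were far lower. Ctss, an endopeptidase that trims the invariant chain of MHC class II, was the highest in both groups, at 2606 ± 116 FPKM in vehicle and 3016 ± 190 FPKM in JHU083 (SD, n = 5), or 27.3% and 28.8% of the summed FPKM of the 10 genes. Ctsz, a carboxypeptidase, followed with 1663 ± 190 FPKM in vehicle. Ctsc, Ctsd and Ctsb came next in vehicle at 1314 ± 53.6, 1117 ± 111 and 1016 ± 77.1 FPKM. The ranges over the vehicle samples overlapped between Ctsc and Ctsd, between Ctsd and Ctsb, between Ctsl and Ctsh, and between Ctsk and Ctse, so the order of these neighbours lies within the spread between samples. Within the same library, Ctsc was nonetheless above Ctsd and Ctsd above Ctsb in 5 of 5 vehicle samples, while Ctsl was above Ctsh in 2 of 5 and Ctsk above Ctse in 3 of 5. Ctsa stood at 777 ± 52.1 FPKM, Ctsl at 515 ± 28.7 FPKM and Ctsh at 505 ± 17.8 FPKM. Below them came a gap of 25.6-fold between the means of Ctsh and Ctsk in vehicle. Ctsk had 19.7 ± 7.75 FPKM and Ctse 15.9 ± 1.71 FPKM in vehicle (SD, n = 5).

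**Figure D1:**
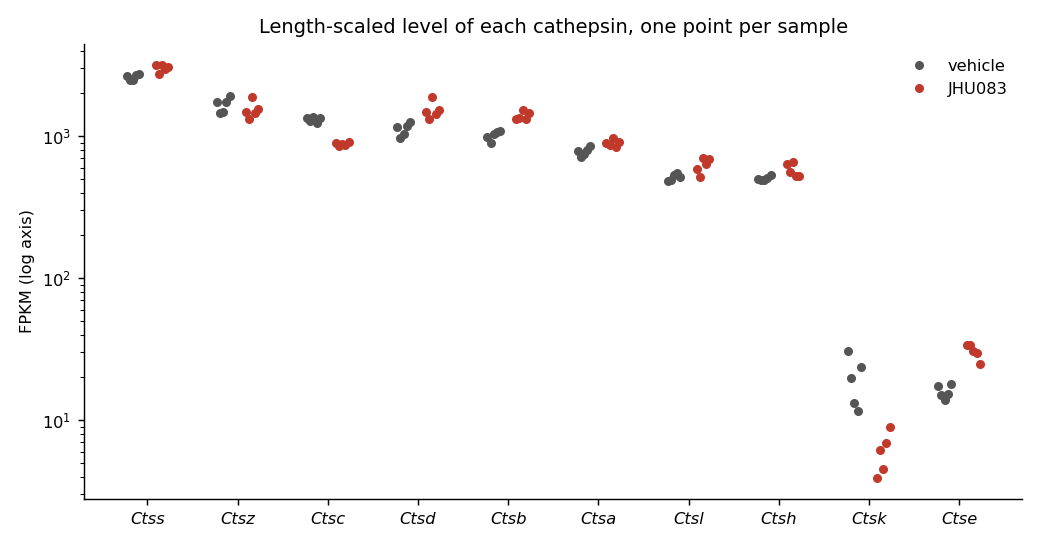
Length-scaled level of the 10 cathepsins (vertical axis, FPKM, log axis), ordered by their vehicle mean, with 1 point per sample (5 vehicle samples in grey, 5 JHU083 samples in red). Ctss is highest in both groups, Ctsc moves from the third place to the sixth, and Ctsk and Ctse exchange places at the bottom.

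The order changed with treatment. In JHU083, Ctsc stood at 880 ± 20.7 FPKM, level with Ctsa at 896 ± 49.1 FPKM, with overlapping ranges. Its part of the summed FPKM of the 10 genes was 13.8 ± 0.93% in vehicle and 8.42 ± 0.57% in JHU083 (SD, n = 5). Ctsd and Ctsb together moved the other way, from 11.7 ± 0.50% to 14.5 ± 0.87% for Ctsd and from 10.6 ± 0.46% to 13.3 ± 0.63% for Ctsb. At the bottom, Ctse at 30.7 ± 3.83 FPKM stood 5.04 times above Ctsk, which averaged 6.08 FPKM (3.90 to 8.93 FPKM over the 5 samples) in JHU083, and their ranges no longer overlapped. Summed over the 10 loci, the share of all fragments was 1.95 ± 0.09% in vehicle (1.86% to 2.05%) and 2.07 ± 0.14% in JHU083 (1.94% to 2.28%), with overlapping groups. The difference of 0.122 percentage points was 0.0703 without JHU083 replicate 3, the highest sample. With the ribosomal loci Rn18s-rs5 and Gm42418 left out of the totals the difference was 0.153 percentage points, and the groups narrowly separated, at 1.87% to 2.05% in vehicle and 2.06% to 2.28% in JHU083.

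Of the 10 cathepsins, 4 were higher in JHU083 (Ctsb, Ctsd, Ctse and Ctsl), 2 were lower (Ctsc and Ctsk) and 4 did not pass the test (Ctsa, Ctsh, Ctss and Ctsz), at an adjusted p under 0.05 by edgeR's quasi-likelihood test over all loci. Over all 12500 loci tested, 18.4% were higher and 18.3% lower. Calls in either direction took 36.7% of all loci, and these shares stand beside the counts of every gene list in this report. With library-size scaling alone the loci split into 1564 higher and 3141 lower, and the median of all loci shifted by -0.08, while 3 cathepsins were higher and 2 lower. The median log2 fold change of the 10 was 0.18, against 0.01 over all loci. In 3 members all 5 JHU083 samples lay above all 5 vehicle samples, and in 2 all lay below, against 11.2% and 11.1% of all loci, or 5 of 10 without overlap against 22.3%. Within the vehicle group replicate 5 held the highest CPM of 8 of the 10 genes, and within the JHU083 group replicate 3 held the highest of 8.

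**Figure D2:**
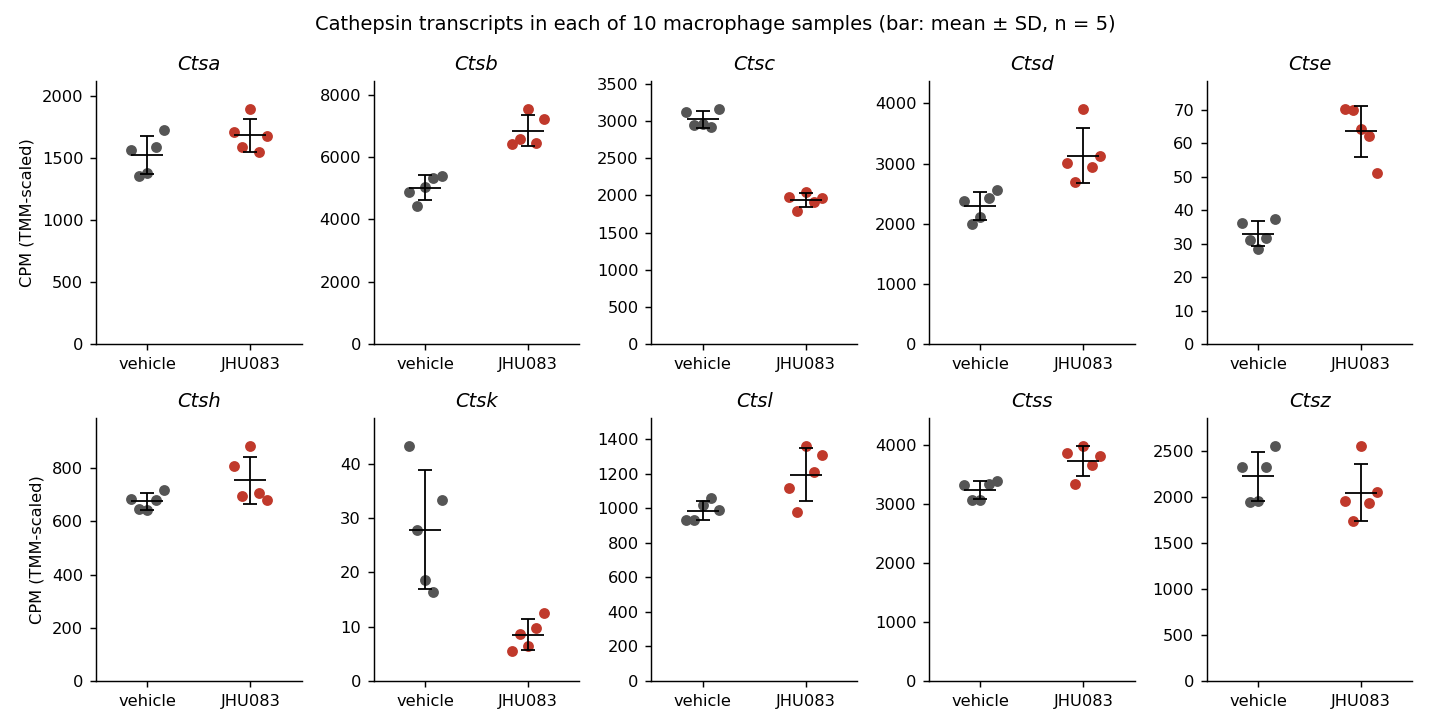
CPM of each cathepsin (vertical axis, TMM-scaled, starting at 0) in the 5 vehicle samples (grey) and 5 JHU083 samples (red), with the mean and SD as black bars. The groups do not overlap for Ctsb, Ctsc, Ctsd, Ctse and Ctsk, and overlap for the other 5 genes.

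The aspartic proteases both rose. Ctse, an endosomal protease of immune cells and epithelia, had 36.3, 31.2, 28.5, 31.9 and 37.3 CPM in vehicle replicates 1 to 5 and 70.2, 70.1, 64.2, 62.2 and 51.3 CPM in JHU083 replicates 1 to 5. The groups did not overlap, and the lowest treated sample, replicate 5, was still above the highest control. The log2 fold change was 0.94 ± 0.10 (SE, adjusted p = 1.70e-05), or 1.92-fold, the largest rise among the 10. Ctsd, the major aspartic protease of the lysosome, had 2384, 1996, 2115, 2422 and 2569 CPM in the vehicle samples and 3009, 2689, 3902, 2937 and 3129.8 CPM in the JHU083 samples. Every treated sample was above every control, and replicate 3 stood highest. Its log2 fold change was 0.45 ± 0.12 (SE, adjusted p = 0.00888), and it was 0.36 without JHU083 replicate 3, still past the threshold.

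Of the cysteine endopeptidases, Ctsb and Ctsl rose, Ctss did not pass the test and Ctsk fell. Ctsb, which also acts as a dipeptidyl carboxypeptidase and takes the most fragments of the 10, had 4892, 4420.4, 5049, 5337 and 5390.3 CPM in the vehicle samples and 6424, 6579.8, 7529, 6456 and 7207 CPM in the JHU083 samples. The groups were separate, and the log2 fold change was 0.45 ± 0.11 (SE, adjusted p = 0.00492), or 1.36-fold. Ctsl, a broad endopeptidase of the lysosome, had 934, 930.3, 1021, 1059 and 988 CPM in the vehicle samples and 1119, 978, 1360.0, 1209 and 1306 CPM in the JHU083 samples. In Ctsl 4 of 5 treated samples were above every control and replicate 2 lay among the controls. The log2 fold change was 0.28 ± 0.10 (SE, adjusted p = 0.0357), and it no longer passed with library-size scaling (0.19, adjusted p = 0.0901), with the replicate block (0.27, adjusted p = 0.0699) and without any 1 of 6 samples (adjusted p up to 0.0892). Those 6 were vehicle replicates 1, 2 and 5 and JHU083 replicates 3, 4 and 5.

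Ctss had 3318, 3071, 3061, 3337 and 3391 CPM in the vehicle samples and 3865, 3337, 3986, 3657 and 3814 CPM in the JHU083 samples. Again 4 of 5 treated samples were above every control. The log2 fold change of 0.21 (95% interval 0.00455 to 0.41, adjusted p = 0.0996) did not pass with edgeR and did with DESeq2 (0.20, adjusted p = 0.0126), with limma-voom (0.20, adjusted p = 0.0422) and without JHU083 replicate 2 (0.24, adjusted p = 0.0489). It was 0.12 with library-size scaling (adjusted p = 0.245), and 0.27 among the 5 samples with Rn18s-rs5 at 0 against 0.17 among the other 5, neither past the threshold. Ctss acts on the invariant chain, and of 8 genes of the invariant chain and MHC class II, 0 were higher, 1 was lower and 7 did not pass. Cd74, which encodes the invariant chain and whose locus also lists Mir5107, had 6633 ± 812 CPM in the vehicle samples and 6567 ± 790 CPM in the JHU083 samples (SD, n = 5), with a 95% interval of the log2 fold change from -0.28 to 0.25. The lower gene was Ifi30, a thiol reductase of antigen processing, from 692 ± 70.2 to 533 ± 17.2 CPM (SD, n = 5, log2 fold change -0.38 ± 0.08 SE, adjusted p = 0.00184).

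Ctsk, the collagen-degrading cathepsin best known from osteoclasts, showed the largest change of the 10. It had 43.3, 27.8, 18.6, 16.4 and 33.3 CPM in vehicle replicates 1 to 5 and 5.46, 8.64, 6.41, 9.71 and 12.6 CPM in JHU083 replicates 1 to 5, from 80 to 638 fragments in a sample. All treated samples lay below all controls, and the spread within groups, 0.53 as an SD of log2 CPM, was the widest of the 10. The log2 fold change was -1.71 ± 0.27 (SE, adjusted p = 0.00029), a 3.26-fold lower level. Its neighbour Ctss, on the same strand, did not pass the test. Ctsk is also made by fibroblasts and by some tumour cells. Of 10 tumour epithelial markers 10 were lower in JHU083, with a median log2 fold change of -1.78 and a summed level of 305 to 666 CPM in vehicle and 105 to 223 CPM in JHU083, and none of them was at 0 in every sample. Of 8 fibroblast markers 5 were lower and 1, Fap, was higher, with a summed level of 112 to 237 CPM in vehicle and 47.0 to 137 CPM in JHU083, and again none was at 0 in every sample. Within the vehicle group Ctsk was highest in replicates 1 and 5, at 43.3 and 33.3 CPM, where the epithelial sum was lowest, at 422 and 305 CPM. The fibroblast sum was also lowest in replicates 5 and 1, at 112 and 153 CPM, though replicate 4 stood close at 155 CPM. Within the JHU083 group Ctsk was highest in replicates 5 and 4, at 12.6 and 9.71 CPM, where the epithelial sum was 136 and 223 CPM, the second lowest and the highest of that group. It was lowest in replicates 1 and 3, at 5.46 and 6.41 CPM, with epithelial sums of 148 and 105 CPM. Tumour epithelial cells and fibroblasts lack CD45, on which the sort selected, and transcripts of their markers were present at the sums given here. The part of these cells in the lower Ctsk level was not tested.

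**Figure D3:**
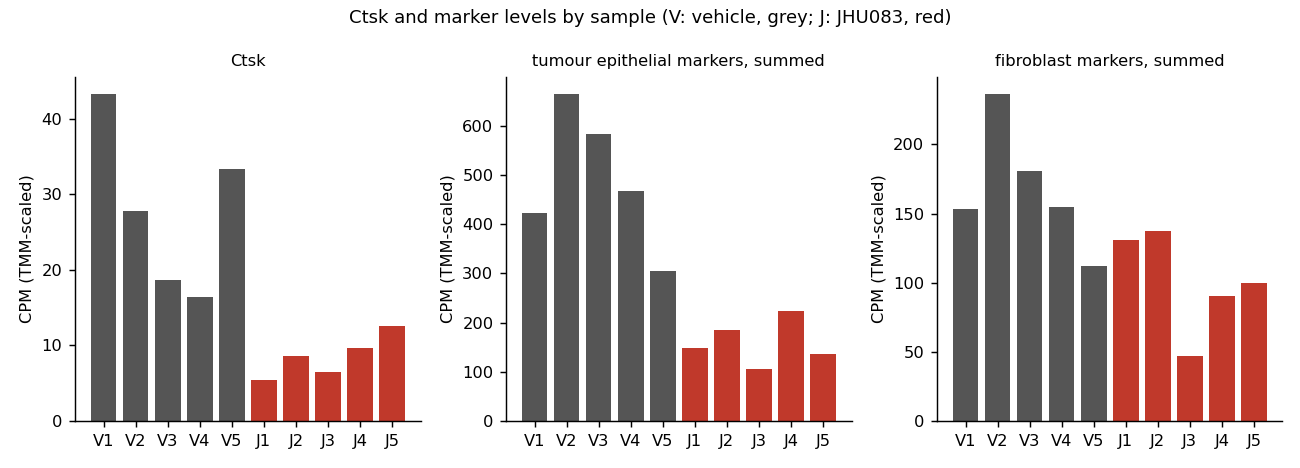
CPM (vertical axes, TMM-scaled, starting at 0) of Ctsk, of 10 tumour epithelial markers summed and of 8 fibroblast markers summed, in each vehicle sample (V1 to V5, grey) and JHU083 sample (J1 to J5, red). Ctsk and the epithelial sum are lower in every JHU083 sample than in any vehicle sample. Ctsk is highest in V1 and V5 within vehicle, where the epithelial sum is lowest, and in J5 and J4 within JHU083, where it is second lowest and highest.

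Of 11 other genes of osteoclast type 9 were tested, 2 were higher, 2 lower and 5 did not pass, beside 18.4% higher and 18.3% lower over all 12500 loci tested. Their median log2 fold change was -0.05. Ocstamp, a membrane protein of cell fusion, fell from 35.0 ± 4.75 to 7.56 ± 1.81 CPM (SD, n = 5, log2 fold change -2.21 ± 0.15 SE, adjusted p = 7.52e-07). Mmp9, a gelatinase, fell from 429 ± 171 to 136 ± 72.0 CPM (log2 fold change -1.65 ± 0.35 SE, adjusted p = 0.00237). Atp6v0d2, a proton pump subunit, rose from 12.6 ± 2.24 to 33.8 ± 14.3 CPM (log2 fold change 1.43 ± 0.25 SE, adjusted p = 0.000585). Acp5, the tartrate-resistant acid phosphatase that is itself cleaved by Ctsk, went from 418 ± 35.8 to 519 ± 97.9 CPM with overlapping groups (log2 fold change 0.31 ± 0.11 SE, adjusted p = 0.0434). The 5 genes whose log2 CPM followed that of Ctsk most closely over the 10 samples, among 9461 loci compared, were Polr1a, Inpp5e, Usp18, Aifm1 and Polr1e, with Pearson r from 0.95 to 0.97. All 5 were also lower in JHU083, with log2 fold changes from -0.67 to -0.25, and r over the 10 samples includes that difference between the groups.

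Among the exopeptidases, Ctsc fell and Ctsh, Ctsz and Ctsa did not pass the test. Ctsc, dipeptidyl peptidase I, which activates the serine proteases of neutrophil, mast cell and lymphocyte granules, had 3123, 2938, 2958, 2921 and 3156 CPM in the vehicle samples and 1983, 1789, 2038, 1905 and 1969 CPM in the JHU083 samples. The groups were far apart, and the SD of log2 CPM within groups, 0.06, was the smallest of the 10. Its log2 fold change reached -0.64 ± 0.09 (SE, adjusted p = 8.06e-05), a 1.56-fold lower level. The mean was 3019 CPM in vehicle and 1937 CPM in JHU083. Neutrophils, in which Ctsc is known to act, carry Ly6G, and the sort took cells negative for it. Whether any neutrophils remained was not tested. In all, 11 neutrophil markers summed to 98.5 to 111 CPM in vehicle and 99.4 to 152 CPM in JHU083. Of those 11, 6 were tested, of which 1 was higher and 2 lower, and none was at 0 in every sample. Most of the sum came from Csf3r, which rose from 58.4 ± 4.34 to 84.5 ± 10.9 CPM (SD, n = 5, log2 fold change 0.53 ± 0.09 SE, adjusted p = 0.000663). S100a8 and S100a9 fell without overlap, from 7.32 ± 1.68 to 2.78 ± 1.10 CPM (log2 fold change -1.40 ± 0.26 SE, adjusted p = 0.000872) and from 16.2 ± 1.98 to 3.61 ± 2.31 CPM (-2.18 ± 0.33 SE, adjusted p = 0.000196). Ngp, too low to be tested, reached at most 13 fragments, with 0.608 to 0.981 CPM in vehicle and 0 to 0.0685 CPM in JHU083. Mpo, also too low to be tested, went the other way, with means of 0.105 and 0.344 CPM. The defining gene Ly6g reached at most 2 fragments in a sample. The tumour epithelial and fibroblast markers, lower in JHU083 for 10 of 10 and 5 of 8 genes, moved with Ctsc between the groups. Within groups Ctsc was highest in vehicle replicates 5 and 1 and in JHU083 replicate 3 (3156, 3123 and 2038 CPM), where the epithelial sums were lowest of their groups (305, 422 and 105 CPM) and the fibroblast sums too (112, 153 and 47.0 CPM). The part of any of these cells in the lower Ctsc level was not tested. Granule proteases that Ctsc activates were low in both groups: of 9 genes 6 were tested and 1, Mcpt4, was lower, and they summed to at most 24.5 CPM in any sample.

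Ctsh, an aminopeptidase, had 683, 649, 643, 682 and 719 CPM in the vehicle samples and 809.5, 696, 884, 709 and 679 CPM in the JHU083 samples. The groups overlapped, and the log2 fold change was 0.16 with a 95% interval from -0.02 to 0.34 (adjusted p = 0.146). It was 0.08 with library-size scaling (adjusted p = 0.433), 0.10 without JHU083 replicate 3, and 0.31 among the 5 samples with Rn18s-rs5 at 0 against 0.06 among the other 5. Ctsz had 2324, 1949, 1956, 2329 and 2549.7 CPM in the vehicle samples and 1953, 1733, 2553, 1930.2 and 2052 CPM in the JHU083 samples. For Ctsz 4 of 5 treated samples lay at or below 2052 CPM and replicate 3 stood level with the highest control, and the log2 fold change was -0.12 with a 95% interval from -0.38 to 0.14 (adjusted p = 0.452). It moved to -0.20 with library-size scaling (adjusted p = 0.145), to -0.21 without JHU083 replicate 3, to -0.07 without JHU083 replicate 2 or vehicle replicate 5, and was -0.01 among the 5 samples with Rn18s-rs5 at 0 and -0.18 among the other 5. Ctsa, the protective protein that holds the sialidase Neu1 and the galactosidase Glb1 in one complex, had 1563, 1357, 1382, 1585 and 1721 CPM in the vehicle samples and 1708, 1590.0, 1891, 1544 and 1673 CPM in the JHU083 samples. Its groups overlapped, with a log2 fold change of 0.14 and a 95% interval from -0.06 to 0.35 (adjusted p = 0.252). On log2(FPKM + 1) with limma it passed, at 0.21 (adjusted p = 0.0439), and with library-size scaling it was 0.06 (adjusted p = 0.572). Among the 5 samples with Rn18s-rs5 at 0 it was 0.21 and among the other 5 it was 0.11, neither past the threshold. Pltp, which overlaps it on the opposite strand, stood at 102 FPKM in vehicle and 172 FPKM in JHU083, and its part in the Ctsa values was not tested. Of its partners, Neu1 rose from 161 ± 10.4 to 191 ± 17.9 CPM (SD, n = 5, log2 fold change 0.25 ± 0.08 SE, adjusted p = 0.0193), and Glb1, whose locus also lists Tmppe, stood at 138 ± 10.6 and 150 ± 11.4 CPM (adjusted p = 0.219). For Ctsa, Ctsh and Ctsz, a change smaller than the bounds of these intervals could not be told from none.

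**Figure D4:**
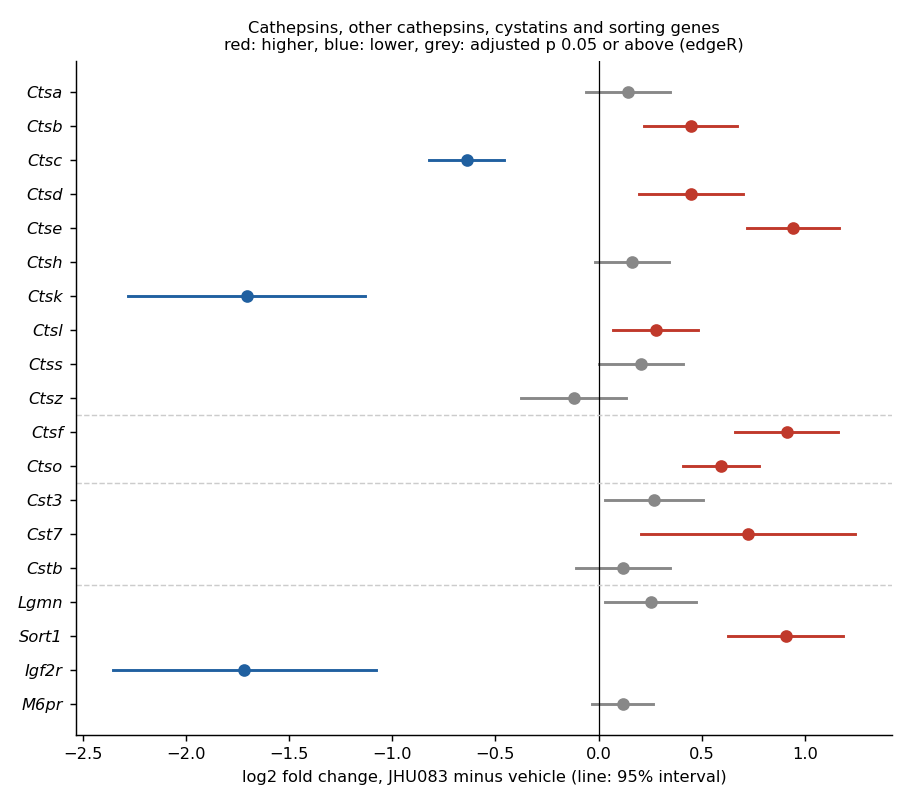
Log2 fold change of JHU083 minus vehicle (horizontal axis) with its 95% interval from edgeR for the 10 cathepsins, 2 further cathepsins, 3 cystatins and 4 genes of sorting and processing, separated by dashed lines. Red marks genes that were higher, blue genes that were lower and grey genes that did not pass an adjusted p of 0.05. Ctsk and Igf2r lie farthest to the left, and Ctse, Ctsf and Sort1 farthest to the right.

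The remaining cathepsins of the mouse genome were then examined. Of 13, only Ctsf and Ctso were abundant enough to be tested, and both were higher. Ctsf, a cysteine protease able to cleave the invariant chain in macrophages, had 59.6, 49.2, 53.6, 60.7 and 67.8 CPM in the vehicle samples and 108, 117, 135, 99.9 and 87.3 CPM in the JHU083 samples. The groups did not overlap (log2 fold change 0.91 ± 0.12 SE, adjusted p = 5.51e-05). Ctso rose from 39.1 ± 3.04 to 58.9 ± 5.55 CPM (SD, n = 5, log2 fold change 0.59 ± 0.09 SE, adjusted p = 0.00016). Of the other 11, Ctsg and Ctsw reached at most 4 and 9 fragments in a sample. Ctsj, Ctsm, Ctsq, Ctsr, Cts3, Cts6 and Ctsll3, mostly members of the placental cathepsin cluster, had 0 fragments in every sample. Cts7 and Cts8 had at most 1.

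Of 11 genes of the cystatin inhibitors 4 were tested, 1 was higher, 1 lower and 2 did not pass, beside 18.4% higher and 18.3% lower over all 12500 loci tested. Cst3, the secreted cystatin C and per length the highest of them at 1738 FPKM in vehicle, had 1187 ± 132 CPM in the vehicle samples and 1430.1 ± 200 CPM in the JHU083 samples (SD, n = 5, log2 fold change 0.27 with a 95% interval from 0.03 to 0.51, adjusted p = 0.0712). Cstb, the cytosolic stefin B, had 197 ± 13.1 and 214 ± 36.7 CPM (adjusted p = 0.403). Cst7, cystatin F, which inhibits Ctsc within the endosomal pathway, rose from 4.27 ± 1.38 to 7.02 ± 2.11 CPM with overlapping groups (log2 fold change 0.72 ± 0.24 SE, adjusted p = 0.031). Gm5483, a stefin gene with close relatives that reads could be shared with, fell from 1.31 ± 0.28 to 0.48 ± 0.38 CPM (log2 fold change -1.47 ± 0.49 SE, adjusted p = 0.0305).

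Of 11 genes of sorting to the lysosome and of processing, 2 were higher, 2 lower and 7 did not pass. Over all 12500 loci tested, the shares were 18.4% higher and 18.3% lower. The median log2 fold change of the 11 was 0.08. Igf2r, the large mannose 6-phosphate receptor, had 26.4, 46.4, 46.1, 27.9 and 15.1 CPM in the vehicle samples and 13.0, 12.2, 4.55, 9.48 and 9.82 CPM in the JHU083 samples (log2 fold change -1.72 ± 0.30 SE, adjusted p = 0.000591). Within vehicle its highest samples, replicates 2 and 3, and its lowest, replicate 5, were also the highest and lowest of the tumour epithelial sum, at 666, 582 and 305 CPM. Within JHU083 the lowest sample of both was replicate 3, while Igf2r was highest in replicate 1 (epithelial sum 148 CPM) and second lowest in replicate 4, where the epithelial sum was highest (223 CPM). The part of those cells in the difference was not tested. M6pr, the small mannose 6-phosphate receptor, stood far above Igf2r per length, at 155 against 3.42 FPKM in vehicle. It had 390 ± 13.8 and 423 ± 33.5 CPM (SD, n = 5, adjusted p = 0.201). Sort1, a sortilin receptor whose locus also lists Gm12525, rose from 4.98 ± 0.71 to 9.34 ± 0.71 CPM (log2 fold change 0.91 ± 0.13 SE, adjusted p = 0.000141). The adaptor Gga2 was higher (log2 fold change 0.39 ± 0.08 SE, adjusted p = 0.00144) and Gga1 lower (-0.26 ± 0.08 SE, adjusted p = 0.0189). Lgmn, the asparaginyl endopeptidase that processes several cathepsins, had 2865 to 3602 CPM in vehicle and 3635 to 4418 CPM in JHU083. Its groups did not overlap, yet it did not pass the test (log2 fold change 0.25, 95% interval 0.03 to 0.47, adjusted p = 0.0679).

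All 6 other lysosomal peptidases tested passed, 5 higher and 1 lower, beside 36.7% of all 12500 loci tested (18.4% higher and 18.3% lower). Prcp, a prolyl carboxypeptidase, rose from 117 ± 6.61 to 172 ± 6.79 CPM (SD, n = 5, log2 fold change 0.55 ± 0.07 SE, adjusted p = 2.98e-05). Tpp1, a tripeptidyl peptidase, rose from 272 ± 9.48 to 365 ± 33.4 CPM (log2 fold change 0.42 ± 0.07 SE, adjusted p = 0.000502). Scpep1, a serine carboxypeptidase, rose from 221 ± 7.84 to 273 ± 10.8 CPM (log2 fold change 0.30 ± 0.06 SE, adjusted p = 0.00153). Dpp7 and Cpq rose by log2 fold changes of 0.24 and 0.26, with overlapping groups. Napsa, an aspartic protease related to Ctsd and Ctse, went the other way, from 17.6 ± 4.10 to 11.7 ± 2.98 CPM with overlapping groups (log2 fold change -0.59 ± 0.18 SE, adjusted p = 0.0193). Of the 4 MiT/TFE transcription factor genes, Mitf was higher, from 22.2 ± 1.71 to 36.5 ± 5.57 CPM without overlap (log2 fold change 0.72 ± 0.11 SE, adjusted p = 0.000167). Tfeb, Tfe3 and Tfec did not pass, with log2 fold changes of -0.08, 0.10 and 0.25.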

How the data were processed

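RNA of 10 sorted macrophage samples was sequenced as poly(A)-selected libraries, per the labels' protocols. The submitters' processing notes name bcl2fastq 2.17.1.14, FastQC 0.11.2, TopHat2 2.1.1 and GRCm38, with no role stated. The counting program and annotation are not given in the sources used here. The authors deposited expected counts that are whole multiples, within 0.05, of 1 step per sample (0.888 to 1.17) for 99.3% to 99.9% of positive values. Values divided by that step were used as fragments, which is inferred from the values. The column headed as normalized was taken as FPKM deposited by the authors, from the ratio of the columns. It was used for levels between genes and in an alternative fit. In addition 1 locus with no symbol (at most 0.00209% of fragments) was left out.

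Loci were filtered with filterByExpr, scaled with TMM and compared with edgeR 4.0.16 (R 4.3.3), quasi-likelihood F-test, no covariate, Benjamini-Hochberg adjustment over all 12500 loci. The test was also tried on simulated counts built from the fitted levels and dispersions of these data. The SE is the absolute log2 fold change divided by the square root of F. Alternatives used DESeq2 1.42.0, limma 3.58.1, other scalings, filters and pseudocounts, samples left out, and the replicate number as a block. Same-numbered samples did not deviate together (mean r of -0.19, and -0.57 to 0.09 over the 5 pairs), and the labels name no pairing. No replicates were duplicates by a chi-square comparison of their fragments (at least 5.80 per degree of freedom). Genes named are the 10 members, genes they act with (Cst3, Cstb, Cst7, Lgmn, Neu1, Glb1, Cd74 and Acp5), the 4 largest changes among called genes of each list, and the 5 loci most like Ctsk. The other cathepsins at or near 0, Tfeb, Tfe3, Tfec, M6pr, Dpp7, Cpq and the cell type markers were named after their values were seen. Members and lists were chosen with earlier results of these data known. Ctsd is read from a locus of 3 symbols.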

Additional observations from a re-analysis of the deposited data

How the results depend on the processing

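Ctsc, Ctse and Ctsk kept direction and call under all 17 alternatives and all 10 fits that each left out 1 sample, at -0.72 to -0.58, 0.87 to 1.02 and -2.12 to -1.47 on the log2 scale. Ctsk was -2.12 among the 5 samples with Rn18s-rs5 at 0 and -1.60 among the other 5. No member changed direction in any fit. Ctsb lost its call only among the 5 samples with Rn18s-rs5 at 0 (0.47, adjusted p = 0.0769), and was 0.43 among the other 5 (adjusted p = 0.0400). Ctsd lost its call in the samples with Rn18s-rs5 at 0 (0.57, adjusted p = 0.0551) and in the other samples (0.37, adjusted p = 0.0705), where fewer samples were compared. Ctsd has no value when loci listing several symbols are left out. Ctsl was past the threshold in 10 of 17 alternatives and 4 of 10 fits without 1 sample (0.23 to 0.34). It lost its call with library-size scaling (0.19), upper-quartile scaling (0.25), no filter on low counts (0.28), log2(FPKM + 1) without a filter (0.27), in the samples with Rn18s-rs5 at 0 (0.32) and above 0 (0.24) and with the replicate block (0.27). Ctsa gained a call with log2(FPKM + 1) and log2(FPKM + 0.1), both at 0.21. Ctss gained one with DESeq2 (0.20), limma-voom (0.20), limma-voom with quality weights (0.19) and without JHU083 replicate 2, with 0.18 to 0.24 over the fits without 1 sample. The number of members higher was 1 in the samples with Rn18s-rs5 at 0, 2 in those above 0 and 3 to 5 in all other fits, and 2 were lower in every fit. The sets split by Rn18s-rs5 also held fewer samples, and the cause of these changes was not tested. The replicate block changed no other member's call, and over all loci it gave 1612 higher and 1757 lower, against 2296 and 2293. The 5 samples with Rn18s-rs5 at 0 gave 532 and 586, the other 5 gave 1274 and 1545, and log2(FPKM + 1) without a filter gave 1416 and 1435. By Dixon's criterion (gap over range above 0.71 in a group of 5) no sample was an outlier for any member in the 20 groups checked, though JHU083 replicate 3 was the highest of its group for 8. At these depths Ctsg, Ctsw and the placental cathepsins were too low to compare.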
